A study of Mus musculus with 3 samples.

Results

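The genes described here encode the cytosolic translation factors of the mouse: initiation factors eIF1 to eIF6 with the kinases and binding proteins that carry their names, elongation factors eEF1 and eEF2 with the enzymes that modify them, and the release factors. Members were matched by gene symbol, with no measured value in the rule, from probe sets that name a single gene. The interferon-induced kinase gene Eif2ak2 was set aside. The rule, its classes and the lists below were chosen with earlier results of these data known, so they are not blind to the data. The rule found 60 of the 17886 genes on the array, in 17 classes, read by 162 probe sets. Where several probe sets read a gene, the brightest on average over the 3 arrays stands for it.

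The cells were dendritic cells (DCs), labelled wild type, that grew from mouse bone marrow in 5 days of granulocyte-macrophage colony-stimulating factor (GM-CSF) and were sorted on PDL2, a ligand of the inhibitory receptor PD-1. The 3 groups were PDL2+ cells left untreated, PDL2- cells given lipopolysaccharide (LPS, which engages Toll-like receptor 4) at 100 ng/ml, and PDL2- cells left untreated. With 1 array in each group nothing below could be checked against replicates, and no p-value is given. The only error at hand is technical: the 2 brightest probe sets of a gene differed in their fold change with a robust SD of 0.41 (log2) after LPS and 0.29 between PDL2+ and PDL2- untreated cells (the PDL2 comparison). The strain, sex and age of the animals, the number of animals pooled and the duration of LPS are not given in the sources used here.

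Signals are normalized log2 values of a probe set, and a difference of 1 is 2-fold. Values under 5.58, the median of all probe sets, were raised to that floor. By the probe set that stands for the gene, 54 of the 60 members lay above the floor on all 3 arrays, Eif2ak4 on 2, and 5 (Eif2s3y, Eif4a3, Eef1aknmt, Eef2k and Eef2kmt) on none. Those 5 gave no comparison (a dimmer set of Eef2k was above the floor on the PDL2- untreated array), so every count below is out of 55. The sort marker gene Pdcd1lg2 read 11.73 in PDL2+ untreated cells, 9.44 in PDL2- LPS cells and 8.40 in PDL2- untreated cells. All 10 DC marker genes were above the floor, Cd74 with an identical 14.33 on the 3 arrays. They were not level between the groups: in PDL2+ against PDL2- untreated cells 4 were higher by 2-fold (Irf4 by 3.38, Batf3 by 2.71, Zbtb46 by 2.37 and Flt3 by 1.89 on the log2 scale) and Itgax was lower (-1.67), and after LPS none passed 2-fold. The summed log2 signal of 9 macrophage markers was 10.97 in PDL2+ untreated cells, 15.18 in PDL2- LPS cells and 15.60 in PDL2- untreated cells. In the PDL2 comparison all 9 were more than 2-fold lower in PDL2+ cells, where Mrc1 was at the floor, and 5 of 5 monocyte markers and 8 of 14 cell cycle genes were lower too. After LPS, 9 of 14 cell cycle genes and 7 of 9 neutrophil precursor markers were lower. The part of these shifts in the values below was not tested, and fewer cells of a type cannot be told apart from less RNA per cell. Of the markers of other cells, 1 of 5 mast cell and basophil genes was higher after LPS and 1 of 5 in PDL2+ cells, 1 of 9 neutrophil genes was lower in PDL2+ cells, 1 of 4 lymphocyte genes was above the floor, and all 3 erythroid genes were at it.

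Translation starts when eIF2, loaded with GTP and the initiator tRNA, joins the small ribosomal subunit together with eIF1, eIF1A, eIF3 and eIF5, and is brought to the capped mRNA by eIF4F, which consists of the cap-binding eIF4E, the scaffold eIF4G and the helicase eIF4A. Elongation runs on eEF1A, which delivers aminoacyl-tRNA, and eEF2, which moves the ribosome, and eRF1 with eRF3 ends it. Common switches of the rate are phosphorylation of eIF2, which blocks its recharging by eIF2B, and the 4E-binding proteins, which hold eIF4E until mTOR releases it. In DCs, LPS is known to alter translation while the cells mature.

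After LPS the translation factor genes were shifted down as a set, with a median log2 difference of -0.27, beside 0.02 over the 11000 genes compared. Of 55 members, 42 (76.4%) lay below 0, against 48.2% of all genes, and 13 above 0, against 51.7%. Few of these shifts were large: 7 members (12.7%) were lower by at least 2-fold, against 13.8% of all genes, and 3 (5.45%) were higher, against 9.17%. Both 2-fold shares are at or below those of all genes, so the shift consists mainly of differences under 2-fold. Between PDL2+ and PDL2- untreated cells the set was not displaced: the median was 0.07, beside 0.01 over 10926 genes. There 32 members (58.2%) were above 0, against 52.9% of all genes, and 23 (41.8%) below 0, against 46.7%. Here 2 members (3.64%) were higher, against 10.1% of all genes, and 5 (9.09%) were lower, against 13.0%. The members' signal was at its lowest on the PDL2- LPS array for 30 of 55 genes (54.5%), against 34.9% of all 11230 genes above the floor on any array.

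**Figure D1:**
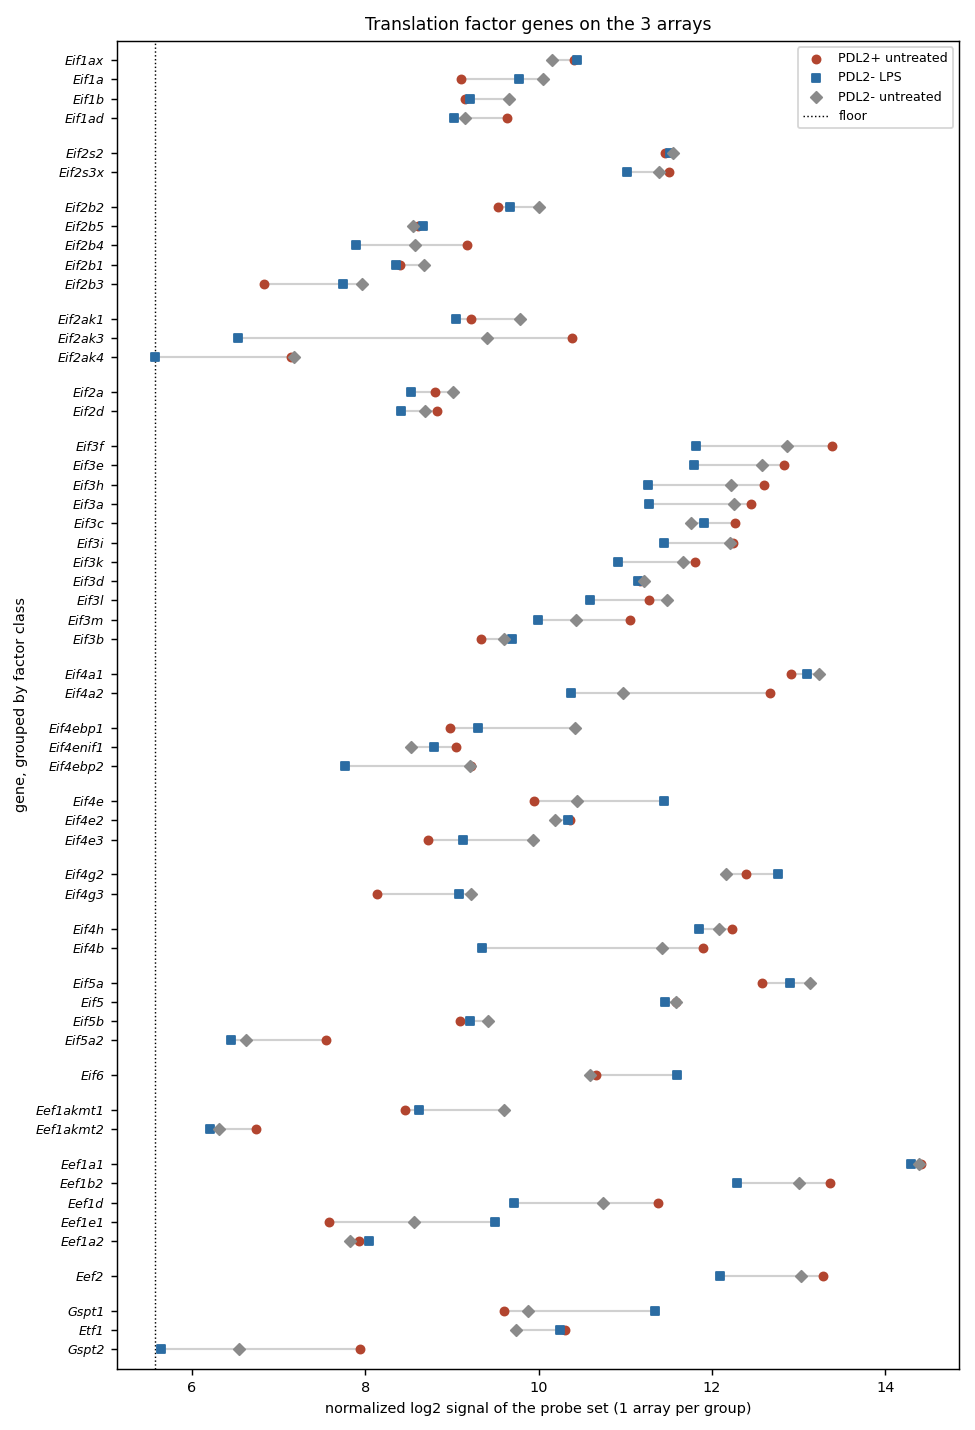
Normalized log2 signal (x axis) of the 55 translation factor genes above the floor on any array (y axis, grouped by class), with 1 point for each of the 3 arrays and a dotted line at the floor of 5.58. The points of PDL2- LPS cells lie left of the others in most eIF3 genes and in Eif2ak3, Eif4b, Eif4ebp2 and Eef2, and right of them in Gspt1, Eif4e, Eif6 and Eef1e1.

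The eIF3 genes, which encode the large scaffold complex on the small ribosomal subunit, were mostly lower after LPS. Of 11, 9 were below 0, with a class median of -0.76 that stayed negative (-0.43 to -0.76) under every alternative processing. Only Eif3f passed 2-fold. It read 13.39 in PDL2+ untreated cells, 11.82 in PDL2- LPS cells and 12.86 in PDL2- untreated cells. The LPS array was thus the lowest, by 2.06-fold against PDL2- untreated cells, and the gene is near the 2-fold line (-0.98 with the deposited values). Eif3a, the subunit around which the complex assembles, read 12.45 in PDL2+ untreated cells, 11.27 in PDL2- LPS cells and 12.26 in PDL2- untreated cells. Its difference after LPS was -0.98, and its 4 probe sets ran from -1.05 to -0.42. Eif3h, at 11.27 in PDL2- LPS cells against 12.22 in PDL2- untreated cells, and Eif3e, at 11.79 against 12.58, gave -0.96 and -0.79. The 3 probe sets of Eif3e lay between -0.79 and -0.77. Eif3l, Eif3i, Eif3k and Eif3m lay between -0.88 and -0.43. Eif3d (-0.07), Eif3b (0.09) and Eif3c (0.14) were close to 0, so the subunits of the complex did not move alike. Eif3b is a core subunit and Eif3d can itself bind the cap of some mRNAs. In PDL2+ against PDL2- untreated cells the class median was 0.19, with 8 of 11 above 0 and a range from -0.27 (Eif3b) to 0.63 (Eif3m).

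Of the genes for eIF2 itself, 2 could be compared, and neither passed 2-fold in any comparison. Eif2s1 is not analysed here. Eif2s2, the beta subunit gene, read 11.46 in PDL2+ untreated cells, 11.51 in PDL2- LPS cells and 11.55 in PDL2- untreated cells, and its 5 probe sets above the floor on both PDL2- arrays lay between -0.19 and 0.16 after LPS. Eif2s3x, the gamma subunit gene on the X chromosome, differed by -0.38 after LPS, with its other probe set at -0.22, and by 0.12 in the PDL2 comparison. Among the 5 genes of eIF2B, which recharges eIF2 with GTP, none passed 2-fold after LPS (median -0.32). Eif2b5, the catalytic subunit gene, read 8.61, 8.67 and 8.55 in PDL2+ untreated, PDL2- LPS and PDL2- untreated cells. Eif2b3, the gamma subunit gene, was the exception in the PDL2 comparison, at 6.83 in PDL2+ cells and 7.96 in PDL2- untreated cells, 2.19-fold lower on its single probe set. Eif2b4 went the other way (0.60 in that comparison, -0.69 after LPS). Eif2a and Eif2d, which encode alternative carriers of initiator tRNA, stayed within 0.49 of 0 in both.

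The eIF2 kinases gave the largest difference of all members. Eif2ak3 encodes PERK, the kinase that senses unfolded protein in the endoplasmic reticulum. It read 10.39 in PDL2+ untreated cells, 6.54 in PDL2- LPS cells and 9.40 in PDL2- untreated cells. The LPS array stood far below both others, 7.30-fold lower than PDL2- untreated cells, while PDL2+ cells were 1.98-fold higher than PDL2- untreated cells, just under the 2-fold line. This rests on 1 probe set, since the other 2 were at the floor on every array. The difference after LPS was -0.75 when all were averaged and -1.60 under the higher floor (the 75th percentile). In both settings the LPS cells were at the floor, so these values are bounds. Eif2ak4 encodes GCN2, which senses uncharged tRNA. Its signals were 7.15 in PDL2+ untreated cells and 7.17 in PDL2- untreated cells, and at 5.57 it was at the floor in PDL2- LPS cells, at least 3.02-fold lower than untreated. Eif2ak1, the gene of the heme-regulated kinase HRI, differed less, with 9.22 in PDL2+ untreated cells, 9.05 in PDL2- LPS cells and 9.78 in PDL2- untreated cells, and after LPS its 3 probe sets above the floor ran from -0.73 to 0.11, while another was at the floor in LPS cells alone. All 3 of these kinase genes were below 0 after LPS. Their median, -1.60, is the floor-bound value of Eif2ak4, and it was -0.68 with averaged probe sets, again with Eif2ak4 at the floor in LPS cells. The fourth kinase gene, Eif2ak2 (PKR, outside the rule), went the opposite way, with 6.90 in PDL2+ untreated cells, 10.08 in PDL2- LPS cells and 7.25 in PDL2- untreated cells, 7.08-fold higher after LPS.

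Genes of the stress response tied to the eIF2 switch were set beside these. Of 14 integrated stress response genes compared, 6 were higher by 2-fold after LPS and 0 lower, against 9.17% and 13.8% of all genes. The list median was 0.88, from the serine pathway gene Shmt2 (-0.63) to the cystine transporter gene Slc7a11 (3.93). Atf4, the factor translated when eIF2 is phosphorylated, read 10.78 in PDL2+ untreated cells, 10.77 in PDL2- LPS cells and 11.32 in PDL2- untreated cells. Ddit3, which encodes the stress factor CHOP, read 7.88, 7.94 and 7.85 in the same order. Neither mRNA passed 2-fold in any comparison. In PDL2+ against PDL2- untreated cells 3 of 14 were higher and 1 lower, against 10.1% and 13.0% of all genes. The list median was -0.10, but 0.16 with the higher floor. Values ran from Psat1 (-1.43, at the floor in PDL2+ cells) to the folate enzyme gene Mthfd2 (3.52).

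**Figure D2:**
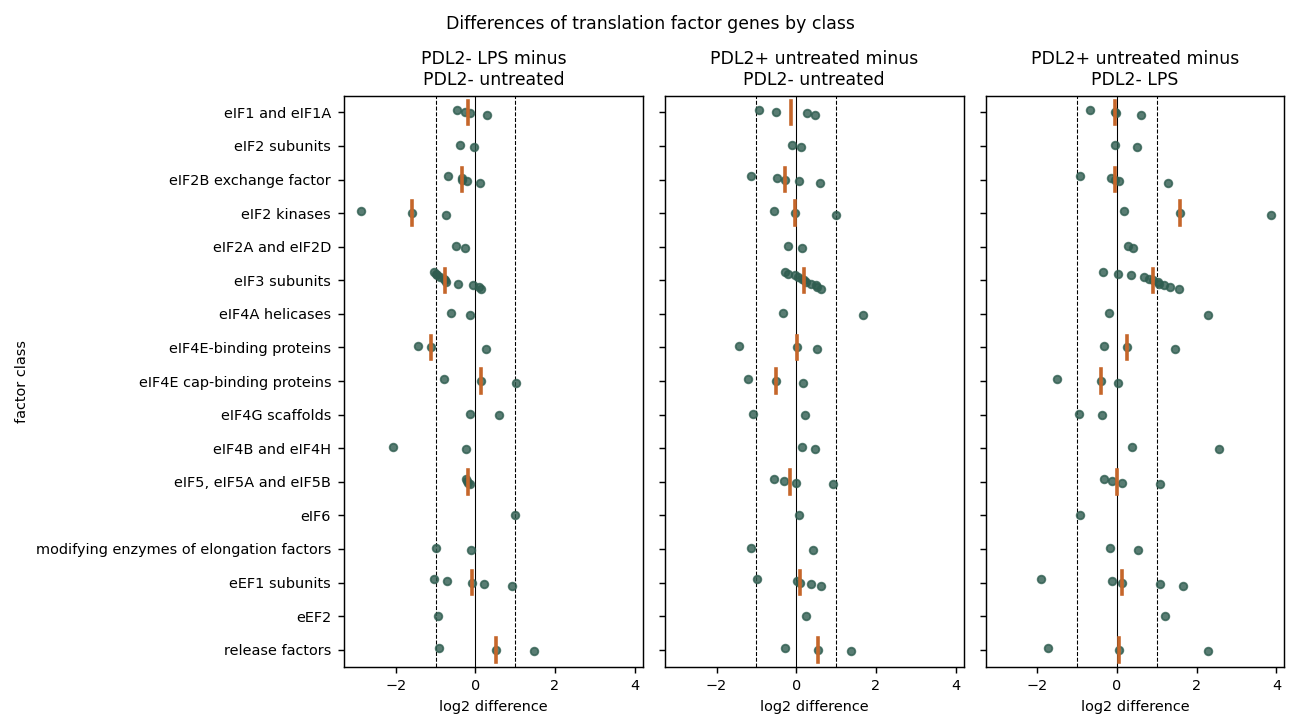
Log2 difference (x axis) of each translation factor gene by class (y axis) in the 3 comparisons, with 1 point a gene, orange bars at class medians for classes of 3 or more and dashed lines at 2-fold. After LPS the eIF3 and eIF2 kinase medians lie at -0.76 and -1.60. The kinase median is a gene at the floor in LPS cells, and so is that of -0.68 with averaged probe sets. PDL2+ minus PDL2- untreated values are centred near 0.

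Genes of eIF4F and its controls moved in different directions after LPS. Eif4e, the cap-binding protein gene, read 9.94 in PDL2+ untreated cells, 11.45 in PDL2- LPS cells and 10.44 in PDL2- untreated cells, with the LPS array the highest. It was 2.02-fold higher after LPS, and its 3 probe sets above the floor ran from 0.05 to 1.01. Of the 3 genes of eIF4E-binding proteins, 2 were lower by 2-fold after LPS and 1 was above 0. Eif4ebp1 encodes the main 4E-binding protein studied as an mTOR target. It read 8.98 in PDL2+ untreated cells, 9.30 in PDL2- LPS cells and 10.42 in PDL2- untreated cells, so it was lower in both other groups than in PDL2- untreated cells (2.71-fold in PDL2+ cells, 2.17-fold after LPS). Its probe sets disagreed in size, from -1.11 to 0.05 after LPS and from -1.48 to -0.13 in PDL2+ cells. Eif4ebp2, its paralog, read 9.22 in PDL2+ untreated cells, 7.76 in PDL2- LPS cells and 9.21 in PDL2- untreated cells. It was low on the LPS array alone, by 2.73-fold, and 4 probe sets ran from -2.42 to -0.70. Eif4enif1, the gene of a shuttling eIF4E-binding protein, differed by 0.27 after LPS and by 0.52 in PDL2+ cells.

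The cap-binding paralogs did not follow Eif4e. Eif4e2, whose product binds the cap without joining eIF4G and serves repression, stayed within 0.18 of PDL2- untreated cells in both. Eif4e3 read 8.72 in PDL2+ untreated cells, 9.13 in PDL2- LPS cells and 9.93 in PDL2- untreated cells. It was 2.31-fold lower in PDL2+ cells, with 2 probe sets at -1.21 and -1.06. Among the scaffolds, Eif4g2, whose product lacks the eIF4E site, read 12.40, 12.76 and 12.16 in PDL2+ untreated, PDL2- LPS and PDL2- untreated cells, and Eif4g3 read 8.14, 9.08 and 9.22. Eif4g3 was 2.11-fold lower in PDL2+ cells on the only probe set of 4 above the floor.

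The helicase paralogs separated. Eif4a1, the main helicase of eIF4F, read 12.91 in PDL2+ untreated cells, 13.10 in PDL2- LPS cells and 13.24 in PDL2- untreated cells. Eif4a2, whose product is linked to repression by microRNAs as well as to initiation, read 12.67, 10.38 and 10.98 in the same cells. PDL2+ cells were 3.22-fold higher than PDL2- untreated cells, the largest difference of a member in that comparison, on a single probe set. Eif4b, the gene of a cofactor that raises the activity of eIF4A, read 11.90 in PDL2+ untreated cells, 9.34 in PDL2- LPS cells and 11.42 in PDL2- untreated cells. The LPS array was 4.22-fold lower, and all 3 probe sets gave at least 2-fold (-2.08 to -1.02). Eif4h, the gene of a related cofactor, differed by only -0.24 after LPS and 0.14 in PDL2+ cells.

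Signalling genes upstream of eIF4F were spread widely. Of 17, 3 were higher and 5 lower by 2-fold after LPS, against 9.17% and 13.8% of all genes. The list median was -0.07, from Pdcd4, an inhibitor of eIF4A, at -3.41 with LPS cells at the floor, to Ddit4, an mTOR inhibitor, at 3.17. In PDL2+ against PDL2- untreated cells 6 were higher and 3 lower, against 10.1% and 13.0% of all genes. The list median there was 0.18, from the mTOR inhibitor gene Deptor (-1.09) to Ddit4 (4.30). The list holds activators and inhibitors, so its median has no single direction of effect.

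The eIF1 genes, whose products guide start codon choice, passed 2-fold in neither comparison with PDL2- untreated cells. Eif1ax read 10.41 in PDL2+ untreated cells, 10.44 in PDL2- LPS cells and 10.15 in PDL2- untreated cells, although a second probe set gave -1.03 after LPS. Eif1a had the lowest value of the class, -0.95 in PDL2+ cells. The eIF5 group was also near 0 after LPS (median -0.19). Eif5, the gene of the GTPase activator of eIF2, read 11.58, 11.45 and 11.59 in PDL2+ untreated, PDL2- LPS and PDL2- untreated cells, with probe sets from -1.10 to 0.19 after LPS. Eif5a, whose product carries the amino acid hypusine and eases ribosomes past difficult stretches, read 12.57, 12.90 and 13.13 in those cells. Its paralog Eif5a2 was higher in PDL2+ cells, 7.54 against 6.63 in PDL2- untreated cells (0.91), and a second probe set, dim in PDL2- untreated cells, gave 1.82. Eif6, whose product keeps the large ribosomal subunit from joining too early, read 10.66 in PDL2+ untreated cells, 11.60 in PDL2- LPS cells and 10.59 in PDL2- untreated cells. The LPS array was 2.01-fold higher, at the 2-fold line, with the other probe set at 0.54.

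Elongation factor genes fell into those with a lower LPS signal and those without. Eef2 read 13.28 in PDL2+ untreated cells, 12.09 in PDL2- LPS cells and 13.03 in PDL2- untreated cells, 1.92-fold lower after LPS. Of the subunits of eEF1B, which recharges eEF1A, Eef1b2 read 13.37, 12.29 and 13.00 in the same cells, and Eef1d read 11.37, 9.71 and 10.74, 2.04-fold lower after LPS. The 2 brighter probe sets of Eef1d gave -1.03 and -0.68, the 2 close to the floor 0.14 and 0.22. Eef1a1 was flat at 14.41, 14.29 and 14.39, at the upper end of the signal range, where an array may understate a difference. Eef1e1, which encodes a scaffold protein of the tRNA synthetase complex, ran in the opposite direction on its single probe set, with 7.59 in PDL2+ untreated cells, 9.49 in PDL2- LPS cells and 8.57 in PDL2- untreated cells. It was 1.90-fold higher after LPS and 1.97-fold lower in PDL2+ cells, both just under 2-fold. Eef1a2, the paralog of muscle and neurons, differed by 0.22 and 0.10. Of the modifying enzymes, Eef2k, the kinase that stops eEF2, was at the floor on the probe set that stands for it. Another set was at the floor in PDL2+ untreated and PDL2- LPS cells and read 6.22 in PDL2- untreated cells. Eef1akmt1, a lysine methyltransferase of eEF1A, read 8.45 in PDL2+ untreated cells, 8.62 in PDL2- LPS cells and 9.60 in PDL2- untreated cells, 2.21-fold lower in PDL2+ cells, with 4 probe sets from -1.14 to 0.04. After LPS it gave -0.98, or -1.12 with the deposited values.

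Several of the lower genes belong to the mRNAs reported in vertebrates to start with a 5' terminal oligopyrimidine (TOP) tract, through which mTOR and LARP1 control their translation and stability. This list was drawn up with earlier results of these data known and is not independent evidence. The 8 TOP factor genes on the array were Eef1a1, Eef1b2, Eef1d, Eef2, Eif3e, Eif3f, Eif3h and Eif4b. All 8 were below 0 after LPS, against 48.2% of all genes and 76.4% of the 55 members. By 2-fold 3 of the 8 were lower, against 13.8% of all genes, and their median was -0.95. Under every alternative processing none was above 0, but only Eef1d, Eif3e and Eif4b have a second-brightest probe set above the floor. With averaged probe sets the median was -0.51. The lower count was 2 with these and with the deposited or median-centred values. In PDL2+ against PDL2- untreated cells all 8 were above 0, against 52.9% of all genes and 58.2% of the members. None of the 8 reached 2-fold there (median 0.37), and 7 of 8 were above 0 with the deposited or median-centred values. Ribosomal protein genes, the largest TOP group, had the same directions at smaller size. After LPS 41 of 45 were below 0, against 48.2% of all genes. Their median was -0.30, from Rpl12 at -1.15, with LPS cells at the floor, to Rpl27a at 0.39. In PDL2+ cells 38 of 45 were above 0, against 52.9% of all genes. The median there was 0.19, from the ribosomal protein-like gene Rpl7l1 at -0.43 to Rps27l at 1.39. Many of these ribosomal protein genes read at the same upper end. Larp1 itself was higher after LPS, at 10.95 in PDL2- LPS cells against 9.74 in PDL2- untreated cells.

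Stretches near the start sites of TOP factor genes are shown because the first bases of the mRNA define the class. Each stretch is centred on its longest run of C and T. In Eef2, Eef1b2 and Eif4b it does not reach the annotated start, so the first bases are not in it. RefSeq promoters (GRCm38.p6) were matched for 5 of the 8. Capitals mark the longest run of C and T on the sense strand within 50 bases of the annotated start.
Eif3f (chr7:108934403-108934432, + strand): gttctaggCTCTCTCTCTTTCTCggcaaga
Eef1a1 (chr9:78481710-78481739, - strand): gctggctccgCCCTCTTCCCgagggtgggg
Eef2 (chr10:81176634-81176663, + strand): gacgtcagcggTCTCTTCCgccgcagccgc
Eef1b2 (chr1:63176850-63176879, + strand): ttgcgtccgagcgCTTTCgttcaactccgg
Eif4b (chr15:102073723-102073752, + strand): gctcagactccaCCCCTTCggccacatgtc
These runs begin 4 bases before the annotated start in Eif3f, 5 before it in Eef1a1, 15 after it in Eef2, 33 after it in Eef1b2 and 38 before it in Eif4b. That of Eef1b2 is only 5 bases long. A run of at least 8 occurred in 3 of the 5 promoters and in 35.7% of all 32851 promoters, and an annotated start can lie some bases from the one in use.

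The E-box CACGTG, the letters that MYC and related factors bind and the same on both strands, was counted over the whole 300 bases of each promoter. It occurred in 12 of the 47 translation factor genes with a promoter (25.5%), against 8.09% of 27025 genes. Eif4e is shown as the only compared gene with the box that was above 0 after LPS, and Eif4a1, Eif3a and Eef2 for contrast. The E-box is in capitals.
Eif4e (chr3:138527028-138527057, + strand): ctcgccagcgacCACGTGatcacttttttt
Eif4e (chr3:138527192-138527221, + strand): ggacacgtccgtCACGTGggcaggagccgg
Eif4a1 (chr11:69672595-69672624, - strand): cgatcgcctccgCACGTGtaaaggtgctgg
Eif3a (chr19:60790654-60790683, - strand): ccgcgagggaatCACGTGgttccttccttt
Eef2 (chr10:81176576-81176605, + strand): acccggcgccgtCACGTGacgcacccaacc
Of 10 genes with the box that could be compared after LPS, 9 were below 0 and 1 (Eif4e) above, from -1.04 to 1.01. Of all 55 members compared, 76.4% were below 0, so this direction was that of most members. Any part of the box or of MYC in these values was not tested. Myc itself read 5.75 in PDL2+ untreated cells, 6.53 in PDL2- LPS cells and 7.46 in PDL2- untreated cells.

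The release factor genes differed from each other. Gspt1 encodes eRF3a, the GTPase that works with eRF1 at stop codons. It read 9.60 in PDL2+ untreated cells, 11.34 in PDL2- LPS cells and 9.88 in PDL2- untreated cells, 2.76-fold higher on the LPS array, the largest increase of a member after LPS. Its 5 probe sets above the floor ran from 0.16 to 1.49. Gspt2, the gene of the second form eRF3b, read 7.93, 5.64 and 6.55 in those cells. It was 2.61-fold higher in PDL2+ than in PDL2- untreated cells and near the floor after LPS. Etf1, which encodes eRF1, read 10.30, 10.25 and 9.74, with differences of 0.51 after LPS and 0.56 in PDL2+ cells.

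**Figure D3:**
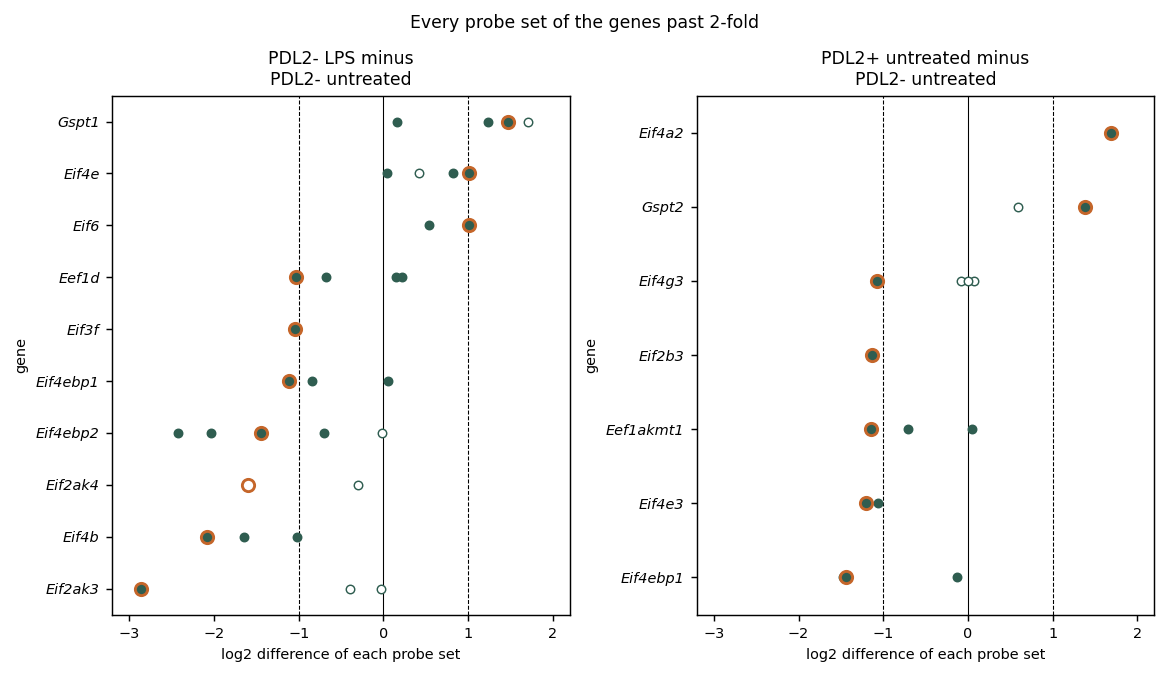
Log2 difference (x axis) of every probe set of the genes past 2-fold (y axis) after LPS (left) and in PDL2+ cells (right), where the large orange-edged point is the probe set that stands for the gene and open points have a signal at or below the floor in either group. All 3 probe sets of Eif4b lie beyond -1 after LPS, while those of Eef1d and Eif4ebp1 spread up to 0.22 and 0.05.

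Because the 2 comparisons above use the same PDL2- untreated array, PDL2+ untreated and PDL2- LPS cells were also compared directly, although this uses the same arrays again. Here 16 of 55 members (29.1%) were higher in PDL2+ cells by 2-fold, against 15.6% of all genes, and 3 (5.45%) were lower, against 12.6%. The median was 0.17, beside -0.05 over 11042 genes. Above 0 were 34 members (61.8%), against 46.4% of all genes, and below 0 were 21 (38.2%), against 53.6%. The 16 were Eif2ak3 (14.5-fold), Eif4b (5.86-fold), Eif4a2 and Gspt2 (4.89-fold each), Eef1d, Eif2ak4 (at least 2.97-fold), Eif3f, Eif4ebp2, Eif3h, Eif2b4, Eef2, Eif3a, Eif5a2, Eef1b2, Eif3m and Eif3e. They include 7 of the 8 TOP factors (5 with median centring, 3 with averaged probe sets) and 5 of the 11 eIF3 genes. The 3 lower genes were Eef1e1 (3.75-fold), Gspt1 (3.34-fold) and Eif4e (2.84-fold). Eif2b4, for example, read 9.17 in PDL2+ untreated cells and 7.89 in PDL2- LPS cells, and was under 2-fold in both comparisons with PDL2- untreated cells.

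Other lists of the translation machinery differed in size and direction. Of all genes, 9.17% were higher and 13.8% lower by 2-fold after LPS, and 10.1% and 13.0% in PDL2+ cells. Poly(A)-binding proteins and their partners had 3 of 7 lower by 2-fold after LPS (median -0.76, from Paip2b at -1.55 to Paip1 at 0.15). This count fell to 1 of 6 with averaged probe sets (median -0.50), 0 of 4 with the second-brightest (median -0.16) and 2 of 6 with the higher floor. None passed 2-fold in PDL2+ cells (median 0.15, from Larp4 at -0.07 to Pabpc4 at 0.58). Of 16 ribosome biogenesis genes, 5 were lower by 2-fold after LPS, beside the lower cell cycle genes given above. Their median was -0.50, from Dkc1 at -2.09, with LPS cells at the floor, to Bop1 at 0.55. In PDL2+ cells, where cell cycle genes were lower too, 4 were lower (median -0.30, from Myc at -1.71 to Npm1 at 0.29). With the second-brightest probe set, 5 of 10 were below 0 in each, 2 were lower after LPS and 0 in PDL2+ cells. With averaged probe sets 2 of 14 were lower in each, and with the higher floor 3 of 9 after LPS and 0 of 8 in PDL2+ cells. Cytosolic tRNA synthetases had a median of -0.03 after LPS (Nars -1.30 to Wars 1.09) and of -0.43 in PDL2+ cells (Farsb -1.55 to Wars 0.50), with 3 and 1 of 19 lower. None of 8 mitochondrial translation factors passed 2-fold in either (Mtrf1l -0.32 to Gfm2 0.35 after LPS, Gfm1 -0.38 to Gfm2 0.26 in PDL2+ cells). Ribosome rescue genes had 1 of 8 higher after LPS (Denr, 1.04, with Mcts1 lowest, just inside 2-fold) and 1 of 8 lower in PDL2+ cells (Mcts1, -1.06, with Zfp598 highest at 0.71).

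**Figure D4:**
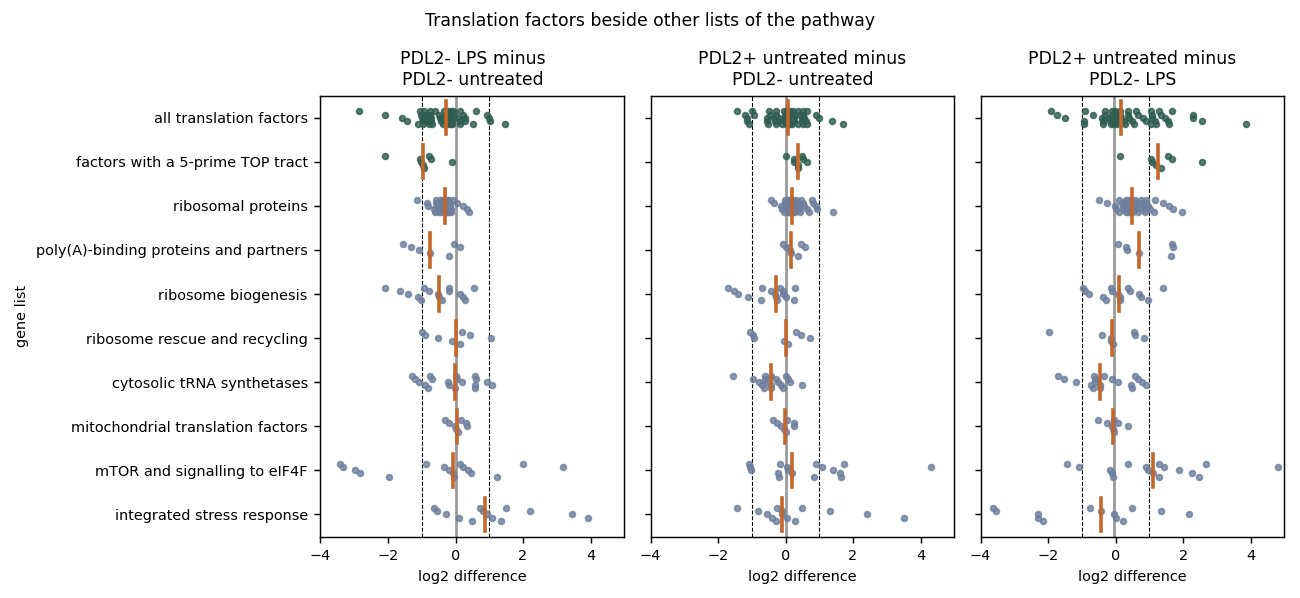
Log2 difference (x axis) of all translation factors, the TOP factors among them and 8 other lists (y axis) in the 3 comparisons, with 1 point a gene, orange bars at list medians, a grey line at the median of all genes and dashed lines at 2-fold. The TOP factors have medians of -0.95 after LPS and 0.37 in PDL2+ cells, and the ribosomal proteins -0.30 and 0.19.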

How the data were processed

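The authors deposited 1 log2 value per probe set and array (the scale was read from the range of the values); background correction, normalization and summary method are not given in the sources used here. Members, classes and lists were chosen with earlier results of these data known. Because the upper quartiles of the 3 deposited columns differed by more than 0.1, the 38533 probe sets left after 13 controls were quantile-normalized (Python 3.11.15, numpy 2.4.6, pandas 2.3.3). The method was also run on simulated data with planted differences past 2-fold in bright genes, which cannot speak to the smaller differences described here. Probe sets naming several genes (449) were used for no gene. Genes at or below the floor on both arrays of a comparison were left out of it. Named genes are all members past 2-fold in any comparison, the brightest of each class and a fixed set, of which Eif2s1, Eif4g1 and Eif4ebp3 are not analysed here; the extremes of each related list are named too. With 1 array per group the only error is technical: the difference between a gene's 2 brightest probe sets had a robust SD of 0.41 (4230 genes) after LPS, 0.29 (4251) in the PDL2 comparison and 0.44 (4142) in the direct one. The number of arrays limits the precision. Alternatives tried were the deposited values, median centring, other floors, other probe sets and other folds. Promoter sequences are from RefSeq.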

Additional observations from a re-analysis of the deposited data

How the results depend on the processing

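No paired analysis was possible because each group has 1 array. The members' median after LPS ran from -0.36 to -0.23 over all alternatives, and that of the direct comparison of PDL2+ untreated with PDL2- LPS cells from 0.09 to 0.26. In PDL2+ against PDL2- untreated cells it ran from -0.04 (second-brightest probe set) to 0.07, so it has no settled sign. With the deposited values the median of all genes after LPS was -0.09 in place of 0.02, and members minus all genes was -0.28, against -0.30 in the main setting. When the floor was the 75th percentile this gap was -0.18 after LPS and 0.06 in the direct comparison, against 0.21 in the main setting, with 27 members above the median of all genes and 24 below. Counts of members past 2-fold moved with the probe set and the fold. After LPS, higher and lower counts were 1 and 3 of 55 with averaged probe sets, against 8.99% and 10.8% of all genes. They were 1 and 3 of 32 with the second-brightest, against 11.8% in each direction. At 1.5-fold they were 5 and 21 of 55, against 15.1% and 24.6%, and at 3-fold 0 and 3, against 5.28% and 5.87%. In PDL2+ cells, 1 of 52 was higher when the floor was the 75th percentile, against 11.6% of all genes. Higher and lower counts were 2 and 3 of 55 with averaged probe sets, against 9.07% and 11.5%. With the second-brightest they were 1 and 3 of 32, against 12.4% and 10.7%. At 1.5-fold they were 7 and 7 of 55, against 17.7% and 20.4%, and at 3-fold 1 and 0, against 5.37% and 7.35%. In the direct comparison 10 of 55 were higher with averaged probe sets, against 13.1% of all genes. With the second-brightest 6 of 31 were higher, against 16.4%, and at 3-fold 5 of 55, against 8.02%. At 1.5-fold 20 of 55 were higher and 7 lower, against 25.1% and 18.5%. Averages take in dim probe sets, and the second-brightest exists above the floor for only 31 or 32 members. With no normalization beyond the deposited values, the lower count after LPS stayed at 7, with Eef1akmt1 in place of Eif3f.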

Other observations

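Probe sets that name a translation factor together with another gene were used in no comparison. A set shared by Eef1g and Gm29753 read 12.27 in PDL2+ untreated cells, 11.72 in PDL2- LPS cells and 12.07 in PDL2- untreated cells. A set shared by Eif4a3 and Gm5576 read 10.65, 10.46 and 10.75 in the same cells, whereas the set naming Eif4a3 alone was at the floor. The 3 sets shared by Eif3j1 and Eif3j2, genes of a loosely bound eIF3 subunit, differed by -0.05, 0.25 and 0.03 after LPS and by -0.57, -0.55 and -0.60 in PDL2+ cells. Of the 162 member probe sets, 9 were deposited with the same value for every array, none of them a set that stands for its gene.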
